A study of Mus musculus with 24 samples.

Results

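The Gimap genes encode small GTPases of immunity-associated proteins and stand side by side on mouse chromosome 6. The 8 members measured here, Gimap1, Gimap3, Gimap4, Gimap5, Gimap6, Gimap7, Gimap8 and Gimap9, were taken as a named list out of 22282 genes, and the list was chosen because of how their levels differed between these cells. Their levels across the groups are therefore given as a description, without a test. Of the 8, 7 had a mean FPKM (fragments per kilobase of transcript, scaled to the size of the library) of at least 1 over all libraries, and Gimap7 had 0.975. FPKM is a level per length of transcript, so that members can be compared with each other on this scale.

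Gimap proteins bind GTP through a domain related to that of septins and lie on intracellular membranes. They are best known from lymphocytes, where loss of Gimap5 or Gimap1 shortens cell survival, and Gimap5 is also needed to keep the endothelium of the liver sinusoids intact. Gimap6 binds the autophagy protein Gabarapl2, Gimap3 is anchored to mitochondria, Gimap4 is known for speeding the death of T cells, and Gimap8 carries several GTP-binding domains in tandem.

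The libraries came from C57BL/6J cells, 3 libraries in each of 8 groups. The methods name wild-type or tdTomato reporter mice of C57BL/6 background as the source of the amniotic cells. Libraries were not assigned to either genotype here. MACs are mouse amniotic cells from embryos of E11.5 to E13.5, pooled by litter and of mixed sex. RACVECs are MACs transduced with lentiviruses for mouse Etv2, Erg and Fli1, Ets transcription factors under the ubiquitous PGK promoter, and cultured with VEGF-A and an inhibitor of TGF-beta signalling. Akt-RACVECs carried in addition a lentivirus for myristoylated, constantly active Akt, Sox17-RACVECs a lentivirus for mouse Sox17, and Akt-MACs the Akt virus without the Ets factors. Akt-LECs and Akt-liver ECs are adult lung and liver endothelial cells that were selected on CD31, cultured with the same Akt virus and sorted on VEcad and CD31. LSECs are liver endothelial cells sorted directly from the tissue, neither cultured nor transduced, so that culture, Akt and the way of sorting cannot be told apart in the comparison of Akt-liver ECs with LSECs. The ages of the adult mice were not used here.

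Some libraries stood apart from the others of their group in genes outside the family. The library labelled Sox17-RACVEC 2 listed the transduced Etv2 at 0, whereas the other Sox17-RACVEC libraries had 458 and 378 FPKM, and it is called by its label below. Sox17 itself was 5.09, 40.1 and 200 FPKM in Sox17-RACVECs, 12.0, 83.5 and 82.2 in Akt-RACVECs and 0 in RACVECs, so that Sox17-RACVEC 1 lay below all Akt-RACVECs. Akt-LEC 1 and Akt-liver EC 1 held the leukocyte gene Ptprc (18.2 and 11.1 FPKM) and the fibroblast collagen Col1a1 (1065 and 556 FPKM), and the other libraries of both groups had Ptprc at 0 and Col1a1 at no more than 5.66. Adgre1, a macrophage marker, was between 56.6 and 4105 FPKM in Akt-MACs and between 434 and 750 in LSECs. LSECs also held Alb, the main hepatocyte transcript, at 1211 to 7975 FPKM. Cdh5, which encodes VEcad and defines endothelium, was at least 863 FPKM in every library of the RACVEC, Akt-RACVEC, Sox17-RACVEC, Akt-LEC, Akt-liver EC and LSEC groups and at most 7.36 in MACs and Akt-MACs. None of 14 genes used by all cells, such as Actb and Tbp, was listed at 0 in any library.

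The cluster spans 119 kb at chr6:48597233-48716518 of mm9, in the order Gimap8, Gimap9, Gimap4, Gimap6, Gimap1, Gimap7, Gimap5 and Gimap3. Of these, 6 lie on the plus strand, and Gimap6 and Gimap3 on the minus strand. The GENCODE model of Gimap1 (48668606 to 48702599) runs over Gimap7 and into Gimap5. The FPKM were given for RefSeq transcripts, and the RefSeq start window of Gimap1 (48688796 to 48689095) lies past the end of Gimap7 (48674635). How far reads of these genes were mixed in the FPKM was not tested. Of all words of 51 bases, the read length, 21.4% of those in the Gimap3 transcript also occur in Gimap5, 12.8% of those in Gimap5 occur in Gimap1 or Gimap3, and 2.54% of those in Gimap7 occur in Gimap1. These shares were counted in the longest GENCODE coding transcript of each member against all GENCODE coding transcripts of other genes. The longest transcripts of Gimap1, Gimap4, Gimap6, Gimap8 and Gimap9 had 0 such words, and the words of Gimap5 and Gimap7 found in Gimap1 lie in other annotated transcripts of Gimap1.

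As the conversion used Ets and Sox factors, the sequences around the start sites of 4 members are shown, 1 or 2 for each kind of pattern described below: Gimap6, already high in RACVECs, Gimap1 and Gimap9, high with Akt, and Gimap4, highest in LSECs. Each window runs from 250 bases before to 50 bases after the start in RefSeq (GRCm38.p6), 5′ to 3′ on the strand of the gene, and has a single exact match in mm9. These matches are chr6:48658194-48658493 on the minus strand for Gimap6, and on the plus strand chr6:48688796-48689095 for Gimap1, chr6:48634327-48634626 for Gimap4 and chr6:48625884-48626183 for Gimap9. Capitals mark 2 motifs that were searched on both strands: the Ets core GGAA preceded by A or C and followed by G or A, and the Sox core ACAAT.
Gimap6: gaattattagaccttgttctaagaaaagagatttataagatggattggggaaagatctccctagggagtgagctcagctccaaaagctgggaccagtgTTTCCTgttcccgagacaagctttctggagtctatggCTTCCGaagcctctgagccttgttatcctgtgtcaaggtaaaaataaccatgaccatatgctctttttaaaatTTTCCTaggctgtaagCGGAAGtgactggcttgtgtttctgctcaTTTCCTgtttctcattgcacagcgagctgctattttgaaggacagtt
Gimap1: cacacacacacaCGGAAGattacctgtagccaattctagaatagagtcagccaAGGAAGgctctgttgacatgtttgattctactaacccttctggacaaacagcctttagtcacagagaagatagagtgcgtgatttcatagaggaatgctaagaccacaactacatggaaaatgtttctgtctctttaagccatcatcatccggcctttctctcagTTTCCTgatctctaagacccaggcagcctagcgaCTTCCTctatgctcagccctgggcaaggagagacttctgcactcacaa
Gimap4: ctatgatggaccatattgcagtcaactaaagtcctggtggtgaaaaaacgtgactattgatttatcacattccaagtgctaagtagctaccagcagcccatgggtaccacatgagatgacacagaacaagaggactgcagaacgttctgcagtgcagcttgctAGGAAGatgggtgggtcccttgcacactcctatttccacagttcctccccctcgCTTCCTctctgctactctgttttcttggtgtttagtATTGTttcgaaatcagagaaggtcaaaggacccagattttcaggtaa
Gimap9: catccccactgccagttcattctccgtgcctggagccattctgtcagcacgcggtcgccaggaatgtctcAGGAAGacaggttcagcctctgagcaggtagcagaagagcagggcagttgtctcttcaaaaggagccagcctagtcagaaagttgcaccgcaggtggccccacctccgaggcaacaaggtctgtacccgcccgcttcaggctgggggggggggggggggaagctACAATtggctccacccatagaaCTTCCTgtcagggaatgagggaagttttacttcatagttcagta
The window of Gimap6 held 5 Ets matches, a number reached by 1.40% of 32851 mouse promoter windows of this length, and that of Gimap1 held 4, reached by 4.36%. Gimap4 and Gimap9 held 2 Ets matches each, and 31.4% of all windows hold at least that many, and 1 Sox match each, which 31.0% of windows have. Of the members not shown, Gimap7 held 2 Ets matches, Gimap3 and Gimap5 1 each, and both windows of Gimap8 1 and 2, and none of these held a Sox match. At least 1 Ets match was found for every member, against 64.7% of all windows. Matches are letters in a window and were not measured as binding.

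**Figure D1:**
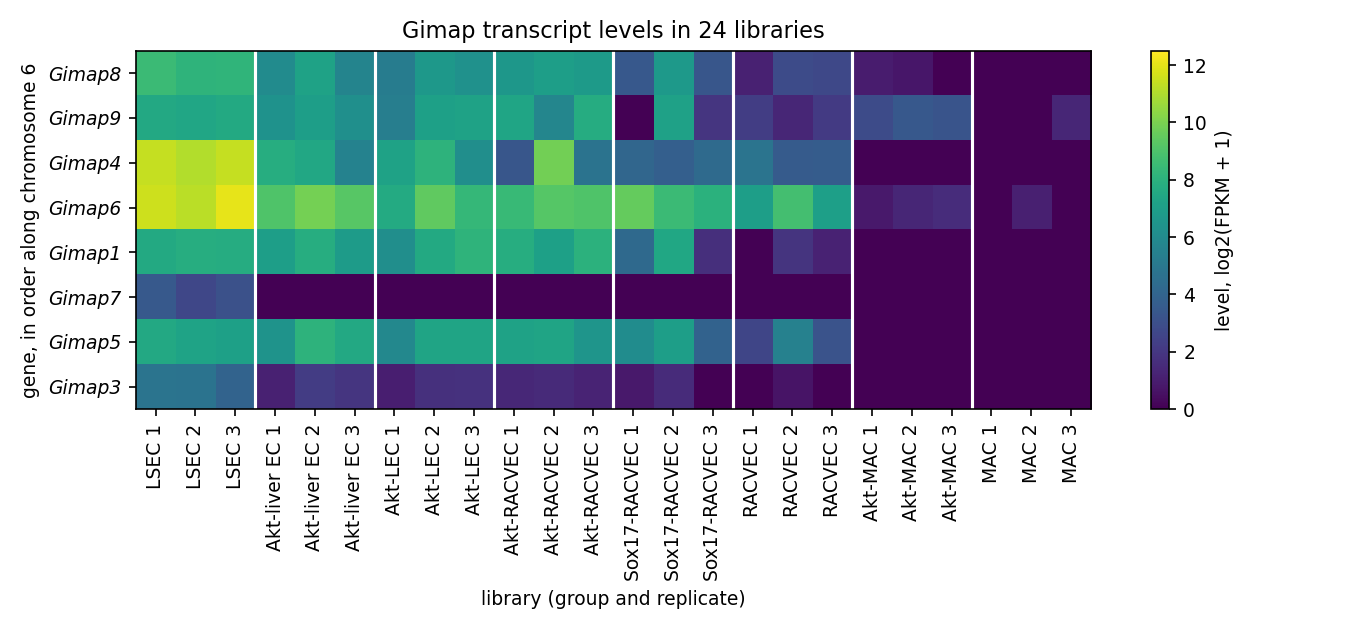
Levels of the 8 Gimap genes, as log2(FPKM + 1), with genes in chromosomal order as rows and the 24 libraries as columns, white lines separating the groups. Gimap6 and Gimap4 are brightest in the 3 LSECs, Gimap1, Gimap8 and Gimap9 are bright in Akt-RACVECs and in the library labelled Sox17-RACVEC 2 but dark in RACVECs, and MACs are dark throughout.

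Taken as a family, the summed level of the 8 genes was 6708, 5386 and 7789 FPKM in the LSEC libraries, 1103, 1898 and 1071 in Akt-liver ECs, and 556, 1546 and 1059 in Akt-LECs. It was 976, 1984 and 1238 in Akt-RACVECs, 847, 931 and 298 in Sox17-RACVECs, and 164, 506 and 162 in RACVECs. In MACs the sum was 0, 1.16 and 1.51, and in Akt-MACs 8.10, 12.1 and 10.5. Every RACVEC library was thus above every MAC and Akt-MAC library, and every LSEC library above all others. The share of the family taken by Gimap6 was 77.0% to 87.0% in RACVECs and 29.6% to 42.7% in Akt-RACVECs, which do not overlap. In Sox17-RACVECs it was 86.9%, 39.6% and 84.1%, and the library labelled Sox17-RACVEC 2 lay within the range of Akt-RACVECs. In bulk RNA, fewer cells with a transcript and less of it per cell cannot be told apart.

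Gimap6 was the most abundant member in every endothelial and converted library except Akt-RACVEC 2, in which Gimap4 was higher. Its FPKM was 2992, 2401 and 4203 in LSECs, 528, 949 and 601 in Akt-liver ECs and 202, 690 and 325 in Akt-LECs. It was 345, 587 and 529 in Akt-RACVECs, 736, 369 and 251 in Sox17-RACVECs and 126, 440 and 132 in RACVECs. MACs had 0, 1.16 and 0, and Akt-MACs 0.800, 1.53 and 1.97. LSECs lay apart above all other groups, MACs and Akt-MACs lay apart below, and each pair of neighbours in the order Akt-liver EC, Akt-RACVEC, Sox17-RACVEC, Akt-LEC and RACVEC overlapped. Between RACVECs and MACs the mean log2(FPKM + 1) differed by 7.24, the widest difference of any member in that comparison, and between Akt-RACVECs and RACVECs it differed by 1.28 with overlapping libraries.

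Gimap5, needed for lymphocyte survival and sinusoidal endothelium, was at 0 FPKM in all MAC and Akt-MAC libraries. It was 5.17, 43.4 and 8.15 in RACVECs, 65.8, 128 and 14.4 in Sox17-RACVECs, and 145, 155 and 91.6 in Akt-RACVECs. Akt-LECs had 57.0, 158 and 156, Akt-liver ECs 84.1, 267 and 185, and LSECs 185, 150 and 136. Gimap5 was the only member whose highest group mean was not in LSECs, 179 ± 91.7 FPKM (SD, n = 3) in Akt-liver ECs beside 157 ± 25.1 (SD, n = 3) in LSECs, and these groups overlapped. All Akt-RACVEC libraries were above all RACVEC libraries, with a mean 6.91-fold higher. Since 12.8% of its transcript words recur in Gimap1 or Gimap3, part of this level could have been assigned to or from those genes, which was not tested.

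Gimap1, Gimap8 and Gimap9 were low in all RACVECs and high in all Akt-RACVECs. Gimap1, required for mature lymphocytes to survive, was 0, 2.73 and 1.29 FPKM in RACVECs and 217, 135 and 263 in Akt-RACVECs, where its mean of 205 ± 64.9 (SD, n = 3) was next to the 209 ± 12.4 (SD, n = 3) of LSECs. It was 126, 222 and 114 in Akt-liver ECs, 72.0, 194 and 278 in Akt-LECs, and 0 in all MACs and Akt-MACs. The Akt-RACVEC libraries overlapped with those of LSECs, Akt-LECs and Akt-liver ECs, and all were far above those of RACVECs, a log2 difference of 6.60 on the log2(FPKM + 1) scale. In Sox17-RACVECs, Gimap1 was 18.1, 175 and 2.22, and only the library labelled Sox17-RACVEC 2 reached the level of Akt-RACVECs.

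Gimap8 was 1.20, 6.34 and 5.64 FPKM in RACVECs and 97.8, 127 and 113 in Akt-RACVECs, a 25.6-fold higher mean. LSECs had 368, 283 and 291, Akt-liver ECs 64.6, 147 and 48.1, and Akt-LECs 37.6, 99.6 and 78.5. LSECs stood above all other groups, and the 3 cultured groups with Akt overlapped. Sox17-RACVECs had 9.73, 106 and 9.05, all above the RACVECs, and without the library labelled Sox17-RACVEC 2 their mean was 9.39 instead of 41.5. Akt-MACs had 0.950, 0.700 and 0, and MACs 0.

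Gimap9, a member whose function is little known, was 3.87, 1.53 and 3.41 FPKM in RACVECs and 160, 51.8 and 214 in Akt-RACVECs, a 48.3-fold higher mean. It was 183, 166 and 190 in LSECs, 81.1, 129 and 74.6 in Akt-liver ECs, and 40.1, 135 and 148 in Akt-LECs. Akt-RACVECs overlapped with each of these 3 groups. Sox17-RACVECs had 0, 140 and 2.77, and without the library labelled Sox17-RACVEC 2 the mean fell from 47.4 to 1.39. Gimap9 was also the 1 member above its RACVEC level in Akt-MACs, with 6.35, 9.89 and 8.54, whereas MACs had 0, 0 and 1.51.

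**Figure D2:**
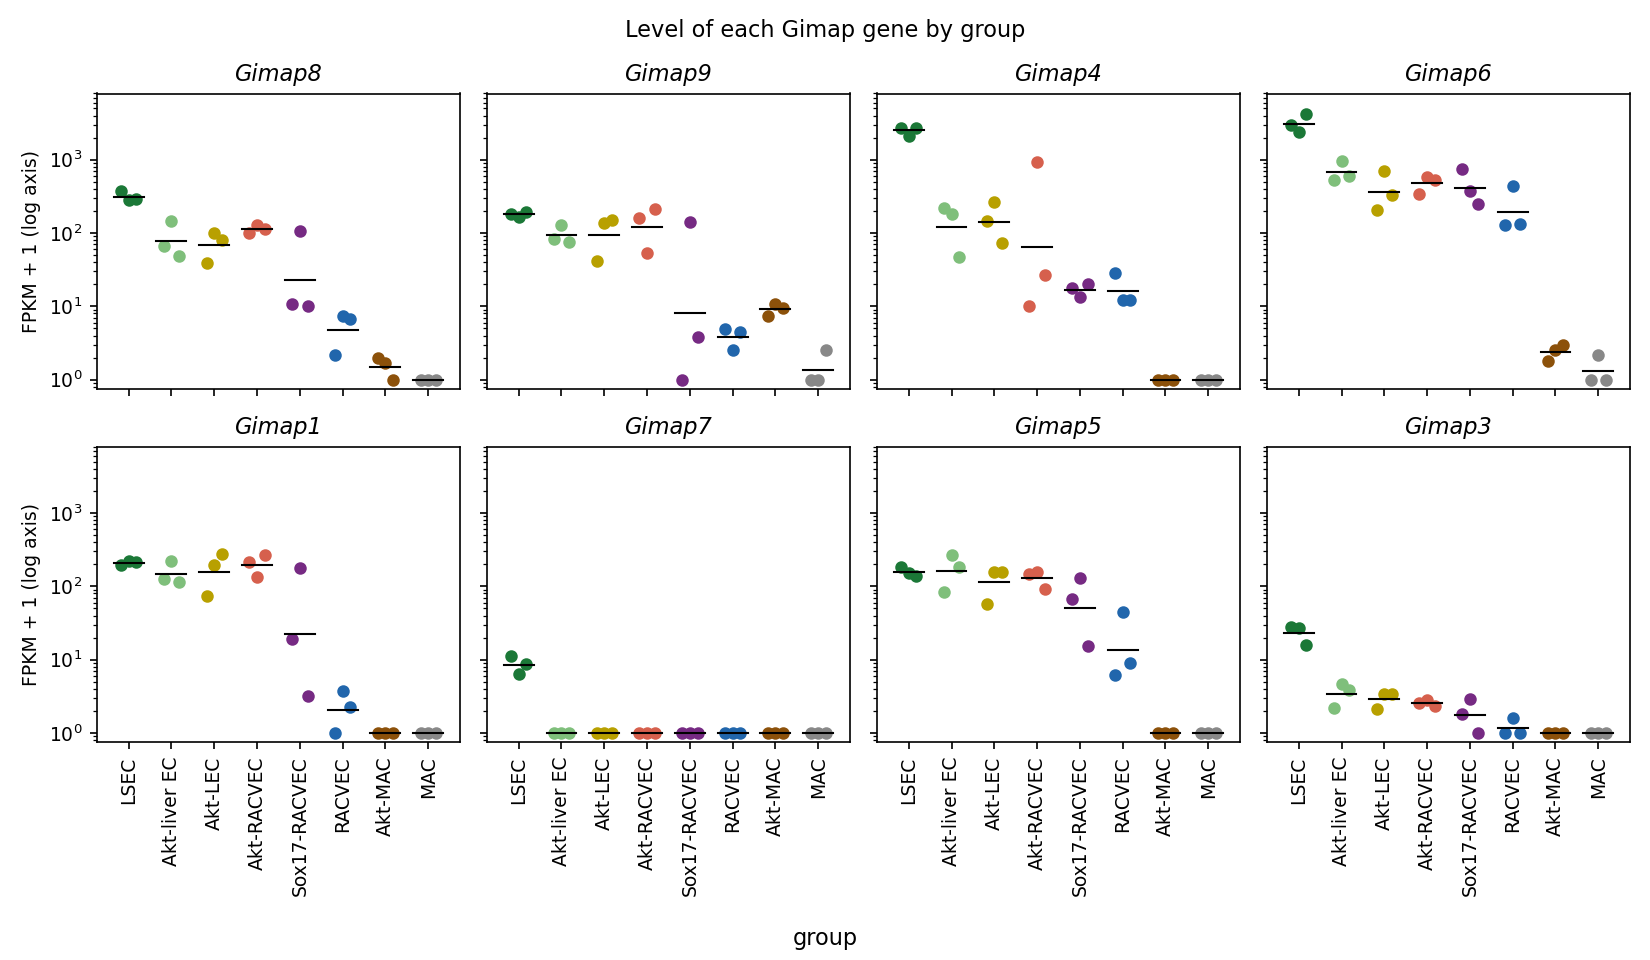
Each panel gives 1 Gimap gene, with the 3 libraries of each group as points on a log axis of FPKM + 1 and black lines for the mean of log2(FPKM + 1) drawn back on that axis. The RACVEC points of Gimap1, Gimap8 and Gimap9 lie below 10, those of Akt-RACVECs above 50, and the Gimap4 points of Akt-RACVECs span 9.26 to 926 FPKM.

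Gimap4 had another order. Its FPKM was 2748, 2135 and 2736 in LSECs, 218, 180 and 45.5 in Akt-liver ECs and 146, 267 and 72.2 in Akt-LECs. It was 27.4, 11.1 and 11.3 in RACVECs, 16.7, 12.6 and 18.9 in Sox17-RACVECs and 0 in all MACs and Akt-MACs. The mean of LSECs was 17.2-fold that of Akt-liver ECs, the widest such ratio among the members with values in both groups. RACVECs and Sox17-RACVECs overlapped, with means of 16.6 ± 9.37 and 16.1 ± 3.22 FPKM (SD, n = 3 each).

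In Akt-RACVECs, Gimap4 was 9.26, 926 and 25.9 FPKM, so that a single library set the group mean of 320, which was 17.6 without Akt-RACVEC 2. The other 2 libraries lay in the range of RACVECs or below it. The same library stood apart in Cldn5, an endothelial tight junction gene, with 3543 FPKM against 4.75 or less, and in Erg, with 1002 against 395 and 418. Its Gimap1 and Gimap9 were the lowest of the group. What sets this library apart was not tested.

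Gimap3 and Gimap7 were low. Gimap3 was 27.1, 26.1 and 14.7 FPKM in LSECs, between 1.10 and 3.70 in Akt-liver ECs, Akt-LECs and Akt-RACVECs, at most 1.95 in Sox17-RACVECs and at most 0.590 in RACVECs. Gimap7 was 10.4, 5.37 and 7.62 in LSECs and was listed at 0 in the other 21 libraries. Both were highest in LSECs. The summed level of the 14 T and NK cell markers was 126 to 154 FPKM in LSECs and 23.6 to 76.8 in Akt-liver ECs, that of the 7 B cell markers 80.6 to 109 and 0 to 2.31, and that of the 11 macrophage and Kupffer cell markers measured 15007 to 24868 and 264 to 1363. Cd3e, part of the T cell receptor complex, was 6.08, 5.24 and 5.21 FPKM in LSECs and 0 elsewhere, and Cd79a, part of the B cell receptor, was 24.1, 25.4 and 15.8 in LSECs and 0 elsewhere. Not all markers were highest in LSECs, and Lck, a T cell kinase, was 22.2, 26.1 and 22.9 in LSECs and 7.79, 44.7 and 49.0 in Akt-liver ECs, which overlap. The part of these cells in the Gimap3 and Gimap7 levels of LSECs was not tested.

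Ptprc, which encodes the pan-leukocyte surface protein CD45, served as the check for leukocyte RNA. It was listed at 0 in all RACVEC, Sox17-RACVEC and MAC libraries, in Akt-liver EC 2 and 3, in Akt-LEC 2 and 3 and in Akt-RACVEC 2 and 3, and at 0.340 FPKM in Akt-RACVEC 1. Gimap6 in these libraries without Ptprc reached 949 FPKM in Akt-liver EC 2 and 736 in Sox17-RACVEC 1, and Gimap1 reached 278 in Akt-LEC 3 and 263 in Akt-RACVEC 3. The reverse held in Akt-MACs, where Ptprc was 4.37, 127 and 306 FPKM and the Gimap sum was no more than 12.1. In Akt-MACs the macrophage and Kupffer cell markers summed to 1086 to 39759 FPKM. The T and NK cell markers summed to 16.7 to 18.1 and the B cell markers to 0 to 25.3. Akt-MACs therefore tell little about Gimap levels where lymphocyte RNA is present. Against MACs, limma called 9 of the 11 pan-leukocyte genes higher in Akt-MACs, beside 2.81% of all genes called in either direction. It called 2 of the 11 without Akt-MAC 2 and 0 when only these groups were fitted. High Gimap levels thus occurred in libraries with Ptprc at 0. The LSECs, with the highest Gimap sums, had Ptprc at 155, 111 and 84.5.

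**Figure D3:**
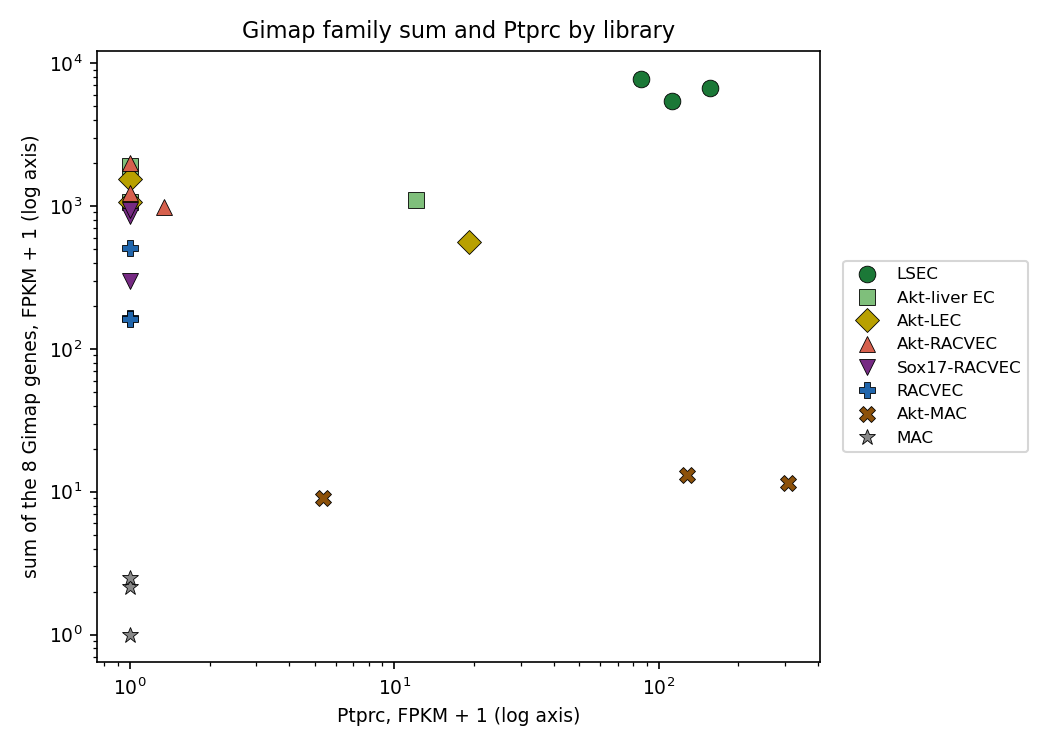
Each point is 1 library, with Ptprc on the x axis and the sum of the 8 Gimap genes on the y axis, both as FPKM + 1 on log axes, and colour and shape give the group. Of the 15 cultured endothelial and converted libraries, 12 stack at Ptprc 0 with sums of 162 to 1984, Akt-RACVEC 1, Akt-liver EC 1 and Akt-LEC 1 lie at Ptprc of 0.340, 11.1 and 18.2, and the Akt-MACs lie at sums of 8.10 to 12.1 up to a Ptprc of 306.

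Over the whole pan-leukocyte list of 11 genes, the summed level was 2204 to 3134 FPKM in LSECs, 115 to 939 in Akt-liver ECs, 56.7 to 635 in Akt-LECs, 133 to 483 in Akt-RACVECs, 158 to 559 in Sox17-RACVECs, 323 to 757 in RACVECs, 190 to 11463 in Akt-MACs and 15.9 to 37.7 in MACs. In RACVECs, 5 of the 11, Ptprc among them, were at 0 in every library. Of the 14 T and NK cell markers, 12 were at 0 in all RACVECs and 11 in all Akt-RACVECs, and Cd3e was among them in both. Of the 7 B cell markers, 5 and 6 were at 0. Of the 12 macrophage and Kupffer cell markers, 11 were measured, and 8 were at 0 in RACVECs and 3 in Akt-RACVECs. Cd14, a co-receptor for bacterial lipopolysaccharide from this list, was 155, 317 and 724 FPKM in RACVECs and 20.3, 6.83 and 7.09 in MACs, and rose by 4.90 on the log2 scale (SE 1.19, limma adjusted p = 0.0299). This call was lost when RACVEC 2, RACVEC 3 or any MAC library was left out, with values of 4.33 to 5.37. Cd53, a leukocyte tetraspanin, was 627, 233 and 135 in RACVECs and 10.1, 15.1 and 24.1 in MACs, which do not overlap, and was not called (4.04, SE 1.74, limma adjusted p = 0.208). The part of such transcripts in the Gimap levels of RACVECs was not tested. Hcls1, a haematopoietic signalling protein also found at 108 to 310 FPKM in RACVECs, was the 1 pan-leukocyte gene of 11 called in RACVECs against MACs, beside 2.71% of all genes. It rose by 6.81 on the log2 scale (SE 1.24, limma adjusted p = 0.00476).

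Against MACs, the conversion to RACVECs came with higher Gimap levels. Of the 7 members that averaged 1 FPKM or more, 5 had all RACVEC libraries above all MAC libraries, namely Gimap4, Gimap5, Gimap6, Gimap8 and Gimap9, beside 11.4% of the 14964 genes measured at that level. Gimap1 and Gimap3 overlapped with MACs. The median log2 difference was 2.25 over the members and 0.00 over all genes. Because the members were selected on these levels, the count is a description and was not tested.

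Akt-RACVECs against RACVECs gave 5 members with all libraries higher, Gimap1, Gimap3, Gimap5, Gimap8 and Gimap9, beside 10.6% of all genes. The median log2 difference over the members was 3.24, against 0.00 over all genes, and Gimap4 and Gimap6 overlapped. The RACVEC libraries are shared by this comparison and the one with MACs. Sox17-RACVECs against RACVECs gave 1 member higher in all libraries, Gimap8, beside 4.05% of all genes, and a median log2 difference of 1.10. In Akt-MACs against MACs it was Gimap9 alone, beside 10.7% of all genes, and the median over the members was 0.00.

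In the liver, the cells directly sorted had more of the family than the cultured ones. Of the 7 members, 5 had all Akt-liver EC libraries below all LSEC libraries, Gimap3, Gimap4, Gimap6, Gimap8 and Gimap9, beside 24.9% of all genes, and the median log2 difference was -2.00. Gimap6 was 4.62-fold, Gimap8 3.63-fold and Gimap9 1.89-fold higher in the mean of LSECs. Gimap1 and Gimap5 overlapped, with log2 differences of -0.50 and 0.05. Ptprc fell by 5.63 on the log2 scale in the same comparison (SE 1.22, limma adjusted p = 0.00164), and the part of leukocytes in the Gimap differences was not tested.

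With all libraries, cultured lung and liver endothelial cells did not lie apart for any member. Of the 7, 0 had libraries that did not overlap between Akt-LECs and Akt-liver ECs, beside 7.16% of all genes in either direction, and the median log2 difference was -0.21. Without Akt-LEC 1 and Akt-liver EC 1, the means of Gimap1 were 236 FPKM for lung and 168 for liver cells, and those of Gimap6 were 508 and 775. In the 2 libraries left of each group, Gimap9 no longer overlapped and was higher in lung cells, at 135 and 148 against 129 and 74.6. Gimap5 and Gimap3 no longer overlapped either and were higher in liver cells. Gimap5 was 158 and 156 for lung and 267 and 185 for liver cells, and Gimap3 2.38 and 2.45 against 3.70 and 2.85. This setting was chosen after seeing the data, and the share of all genes was not counted for 2 libraries against 2. Whether these members stand out from other genes is therefore not known, and their orders are descriptions only. RACVECs against Akt-LECs gave 6 of the 7 members lower in all libraries, beside 7.68% of all genes, with a median log2 difference of -3.14. The exception was Gimap6, whose RACVEC libraries of 126 to 440 overlapped with those of Akt-LECs of 202 to 690.

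Members moved together to different degrees over the libraries. Over the 24 libraries, Pearson's r of log2(FPKM + 1) was 0.97 between Gimap1 and Gimap8 and 0.66 between Gimap6 and Gimap9. Without MACs and Akt-MACs, in which most members are at or near 0, r over 18 libraries was 0.93 between Gimap1 and Gimap8, 0.52 between Gimap1 and Gimap4, and 0.49 between Gimap6 and Gimap9. These values are descriptions, since libraries share groups and the genes share sequence and position.

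Erg, an Ets factor of mature endothelium that was also delivered by lentivirus, was listed at 3.91, 13.8 and 0.900 FPKM in RACVECs and at 395, 1002 and 418 in Akt-RACVECs. It was 4.49, 387 and 0 in Sox17-RACVECs, at least 176 in all Akt-LEC, Akt-liver EC and LSEC libraries and 0 in MACs and Akt-MACs. The libraries with Erg of at least 176 had Gimap1 of at least 72.0, Gimap8 of at least 37.6 and Gimap9 of at least 40.1 FPKM, and all others had at most 18.1, 9.73 and 9.89. In the library labelled Sox17-RACVEC 2 all 4 genes were high, and in the other Sox17-RACVECs all 4 were low. The libraries with Erg of at least 176 were also set apart by the endothelial genes Pecam1 and Tek. Pecam1 was at least 1077 FPKM in them and at most 714 in all others, and Tek at least 70.1 and at most 27.9. Kdr overlapped, with 303 in Akt-LEC 1 and 374 in Sox17-RACVEC 3. The split was thus not particular to Erg, and its limits were read from these data. Erg rose by 6.73 on the log2 scale in Akt-RACVECs against RACVECs (SE 1.31, limma adjusted p = 0.0363), a call that was lost when any Akt-RACVEC library, RACVEC 1 or RACVEC 3 was left out, with values of 6.01 to 6.97. Fli1, between 139 and 434 in every endothelial and converted library, did not separate them, and no part of Erg in the Gimap levels was tested. RACVECs received the Erg virus and listed Erg low, and how far the FPKM of Erg counts transcripts of the vector is not known. The rise of Erg therefore cannot be assigned to the gene of the cell or to the vector. From qPCR, the authors reported that Akt left transcript levels of the Ets factors unchanged, unlike the FPKM of Erg here. The reason for this difference was not tested.

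**Figure D4:**
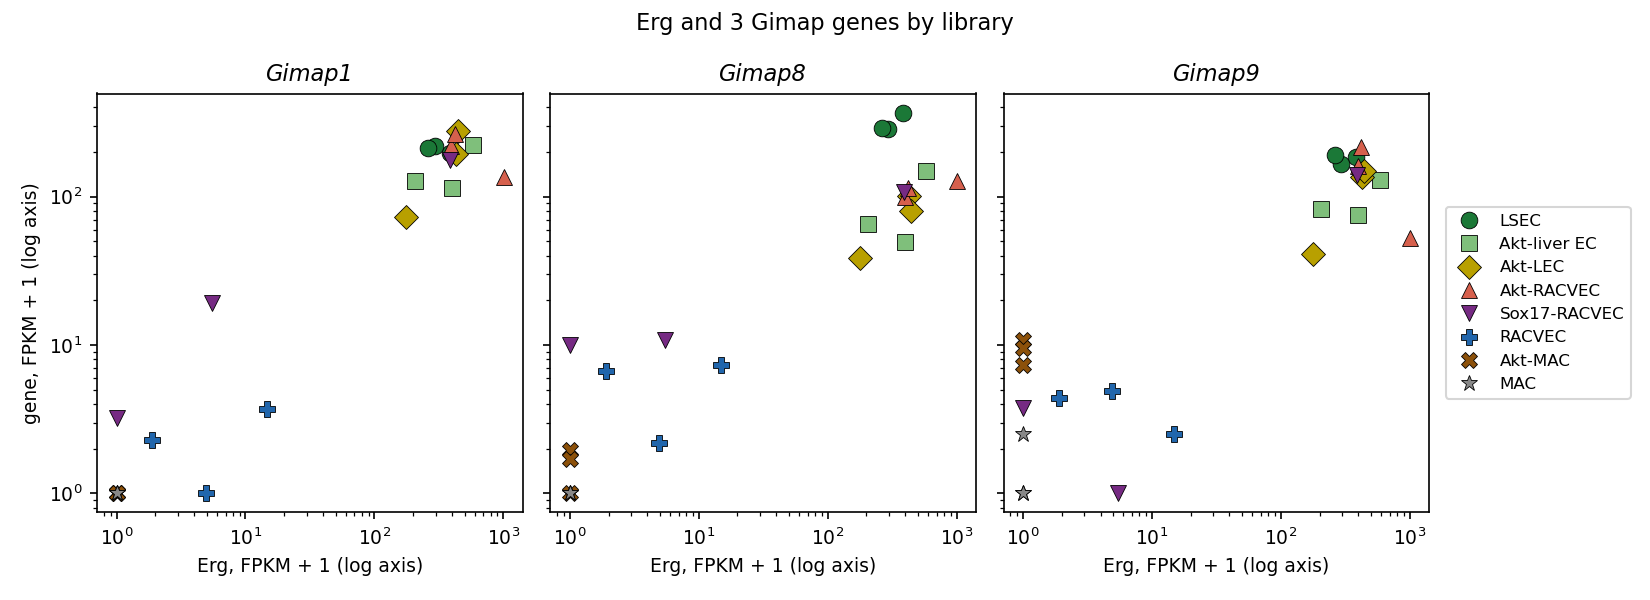
Erg on the x axis against Gimap1, Gimap8 and Gimap9 on the y axes, as FPKM + 1 on log axes, with 1 point per library, coloured and shaped by group. RACVECs and the Sox17-RACVEC libraries 1 and 3 lie at Erg of at most 13.8, and the library labelled Sox17-RACVEC 2 lies with the Akt-RACVECs at an Erg of 387.

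The genes around the cluster were measured to see whether the region moved as a whole. Within 300 kb on either side, 18 protein-coding genes are annotated, of which 15 were measured and 10 averaged 1 FPKM or more. In RACVECs against MACs 0 of these 10 were called by limma, beside 2.71% of all genes, and 4 had an unadjusted p below 0.05, Atp6v0e2, Lrrc61, Krba1 and Repin1, with log2 differences of -3.20, -0.97, -0.72 and -0.71. In Akt-RACVECs against RACVECs it was also 0 of 10, beside 0.261%, with 2 at an unadjusted p below 0.05. Members were counted by overlap of libraries and neighbours by calls, so the counts are not comparable. By overlap, Zfp467 and Lrrc61 were higher in all Akt-RACVECs than in all RACVECs, beside 10.6% of all genes. Zfp467 was 62.7, 41.5 and 109 FPKM against 22.6, 21.1 and 38.5, and Lrrc61 18.1, 18.1 and 29.0 against 9.55, 18.0 and 11.6. By the same rule, Krba1, Lrrc61 and Repin1 were lower in RACVECs than in MACs. The share of all genes lower by this rule was not counted there, so these neighbours cannot be set against it. The median log2 fold change of the neighbours was -0.72 and -0.08 in these comparisons. Among Sox17-RACVECs, Zfp467 was highest in the library labelled Sox17-RACVEC 2, at 94.1 FPKM, as were Gimap1, Gimap8 and Gimap9. Zfp467 thus shared part of the pattern of these members. Between RACVECs and MACs, Zfp467 overlapped, as did Gimap1, unlike Gimap8 and Gimap9. The nearest neighbour with a high level, Tmem176b, a membrane protein of dendritic cells, had 1443, 2138 and 1280 FPKM in RACVECs and 1752, 1958 and 1415 in MACs, which overlap.

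Further counts of 0 of 10 neighbours were found in Sox17-RACVECs against RACVECs (0.00668% of all genes called, 1 neighbour with an unadjusted p below 0.05), Akt-MACs against MACs (2.81%, none), Akt-LECs against Akt-liver ECs (0.0134%, none) and RACVECs against Akt-LECs (0.261%, 1 neighbour). In Akt-liver ECs against LSECs, 5 of 10 were called, beside 27.0% of all genes. Gpnmb, a lysosomal glycoprotein, was higher by 8.81 on the log2 scale (SE 2.32, limma adjusted p = 0.00668), and Krba1 and Repin1 were also higher, the latter not called without LSEC 1 (0.94), LSEC 3 (1.04) or Akt-liver EC 3 (0.91). Rarres2, the adipokine chemerin, fell by 5.43 on the log2 scale (SE 1.21, limma adjusted p = 0.00202), and Zfp467 was also lower, a call lost without Akt-liver EC 3 (-1.93). Without Akt-liver EC 3, 3 of the 10 were called. The neighbours thus moved in both directions where the Gimap genes were lower.

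**Figure D5:**
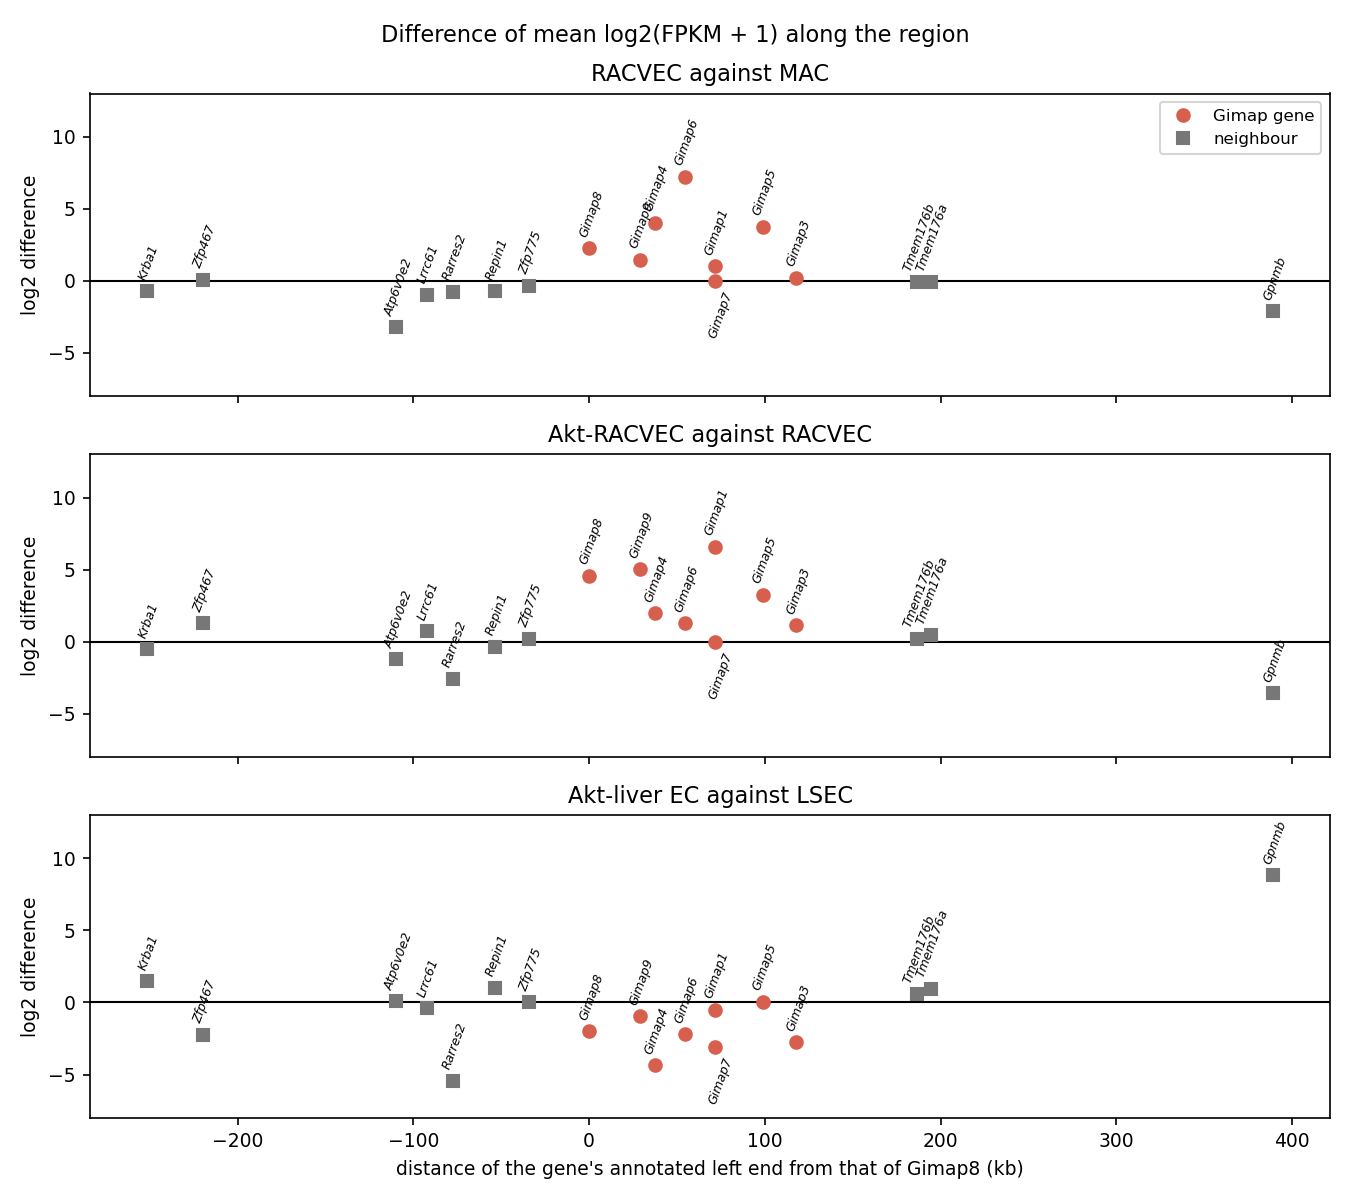
Differences of mean log2(FPKM + 1) for RACVECs against MACs, Akt-RACVECs against RACVECs and Akt-liver ECs against LSECs, for the 8 Gimap genes (circles) and the 10 neighbours (squares), by the distance in kb of their annotated left ends from that of Gimap8. In the upper panels the circles are at or above 0, up to 7.24 and 6.60, and none of the squares was called.

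Genes that work with Gimap proteins were looked at as a list of 11, made of the Bcl2 family, Gabarap and Lc3 genes and Gsk3b. In RACVECs against MACs, 1 of 11 was called, beside 2.71% of all genes. This was Map1lc3a, an autophagosome protein, which fell by 1.37 on the log2 scale (SE 0.34, limma adjusted p = 0.0318). The call was lost when RACVEC 2, RACVEC 3, MAC 2 or MAC 3 was left out (-1.34 to -1.17) or only these groups were fitted. In Akt-liver ECs against LSECs, 2 of 11 were called higher, beside 27.0% of all genes called in either direction, the survival factor Bcl2l1 by 1.18 on the log2 scale (SE 0.29, limma adjusted p = 0.00399) and the kinase Gsk3b by 1.01 (SE 0.30, limma adjusted p = 0.0131). Without LSEC 3 or Akt-liver EC 2 the value of Gsk3b was 0.83 or 0.88 and no longer called. The other 5 comparisons called 0 of 11, beside 0.00668% to 2.81% of all genes, with 0 to 4 at an unadjusted p below 0.05. Bcl2, a survival factor with which Gimap proteins associate in T cells, was 12.2, 20.1 and 21.7 FPKM in RACVECs and 26.9, 51.5 and 7.22 in Akt-RACVECs, which overlap.

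Another set of 13 immune GTPases, those induced by interferon, was set beside the Gimap genes. In RACVECs against MACs, 2 of 13 were called higher, beside 2.71% of all genes called in either direction. These were Gbp4, by 4.98 on the log2 scale (SE 1.11, limma adjusted p = 0.0176), and Gvin1, by 4.70 (SE 0.81, limma adjusted p = 0.00309). Both calls were lost when only these groups were fitted, and that of Gbp4 without RACVEC 3 (4.32). In Akt-RACVECs against RACVECs 0 of 13 were called, beside 0.261% of all genes, with a median log2 fold change of -1.31 and 2 at an unadjusted p below 0.05. In Akt-liver ECs against LSECs, 8 of 13 were called lower, Gbp2 and Iigp1 among them, with a median of -2.51, beside 27.0% of all genes called in either direction. Without Akt-liver EC 3, 3 of 13 were called lower. In RACVECs against MACs, the median log2 fold change of the 13 was 1.25. For RACVECs against MACs, Akt-RACVECs against RACVECs and Akt-liver ECs against LSECs, the Gimap medians were 2.25, 3.24 and -2.00. The medians of both sets thus differed in direction only in Akt-RACVECs against RACVECs.

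The 10 genes most like the mean log2 level of the 7 members over the 24 libraries were Ushbp1, Pcdh12, Kdr, Dennd3, Npr1, Tmem88, Exoc3l, Tek, Lyve1 and Ptprb, with Pearson's r from 0.969 for Ushbp1 to 0.939 for Ptprb among 14957 genes ranked. Kdr and Tek encode the endothelial receptors for VEGF-A and angiopoietins. Ushbp1 was 1.89, 13.7 and 6.20 FPKM in RACVECs, 327, 176 and 424 in Akt-RACVECs and 314 in the library labelled Sox17-RACVEC 2 against 16.3 or less in the other Sox17-RACVECs. By Spearman's rho, 5 of the 10 stayed among the first 10, and without the LSECs 4 did.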

How the data were processed

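RNA of 24 libraries was sequenced by the authors as paired reads of 51 bp from TruSeq libraries and mapped with TopHat to mm9, printed as mmp9 in the methods. The authors deposited FPKM from Cufflinks, upper-quartile normalized and corrected for sequence bias, as 1 value for each of 27583 RefSeq transcripts. Versions and numbers of reads are not given in the sources used here, so depth and counting error are unknown and precision rests on the 3 libraries per group. The methods call independently isolated cultures biological replicates. The labels tie no library to an animal or litter. P-values of the main fit therefore rest on the spread between libraries within groups, estimated over all 8 groups together.

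Transcripts were joined to symbols with a RefSeq gene table (26934 joined, 649 not) and summed to 22282 genes. Summed FPKM per library was 1689486 to 2317294. Both transcripts listed for Gimap1, Gimap4 and Gimap8 were added. Levels of the members were described by library, without a test. For other genes, values of log2(FPKM + 1) entered a single limma fit of the 8 groups (limma 3.58.1, R 4.3.3), with a trend in the variance. P-values were two-sided and adjusted by Benjamini-Hochberg for the 14964 genes averaging 1 FPKM or more. Calls required an adjusted p under 0.05 together with a log2 difference beyond 1 in either direction. Fold changes on this scale understate those of low genes. The fit was tested on simulated data. Libraries were called not overlapping where the lowest value of a group was above the highest of the other. Positions came from GENCODE M1 on mm9, promoter windows from RefSeq. Python 3.11.15, pandas 2.3.3, scipy 1.17.1 and matplotlib 3.10.9 were used.

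The members, gene lists and neighbours (all protein-coding genes within 300 kb) were chosen with earlier results of these data known. All members and the 10 genes most correlated with their mean were named, and genes of the lists and neighbours could be named and were otherwise counted. Cldn5 and Col1a1 values of libraries that stood apart were picked after they were seen. Alternatives were pseudocounts of 0.1 and 10, no filter, a mean FPKM of at least 10, only the groups compared, the replicate number as a block, scaling by the median shift and leaving out each library.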

Additional observations from a re-analysis of the deposited data

How the results depend on the processing

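The median log2 difference over the Gimap members kept its sign in every comparison under the alternatives run, apart from Akt-MACs against MACs, whose value of 0.00 became -0.14 with scaling by the median shift and 0.29 with members of a mean FPKM of at least 10, and Akt-LECs against Akt-liver ECs (below). A pseudocount of 10 gave 0.51 for RACVECs against MACs, 2.49 for Akt-RACVECs against RACVECs, -1.36 for Akt-liver ECs against LSECs and -2.44 for RACVECs against Akt-LECs, and a pseudocount of 0.1 gave 5.18 for the first. With members of a mean of at least 10 the values were 3.01, 3.91 and -1.48 for the first 3 of these. Leaving out 1 library at a time gave 1.93 to 2.80 for RACVECs against MACs, 2.67 to 4.09 for Akt-RACVECs against RACVECs, 1.13 to 1.72 for Sox17-RACVECs against RACVECs, -2.46 to -1.67 for Akt-liver ECs against LSECs, -0.42 to 0.25 for Akt-LECs against Akt-liver ECs and -3.91 to -2.81 for RACVECs against Akt-LECs.

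The number of genes called changed more. A fit of only the groups compared called 76 genes for RACVECs against MACs (405 in the fit of all groups), 71 for Akt-RACVECs against RACVECs (39), 5 for Sox17-RACVECs against RACVECs (1), 1 for Akt-MACs against MACs (420) and 1 for Akt-LECs against Akt-liver ECs (2). With a mean FPKM of at least 10 the counts were 82 for Akt-RACVECs, 0 for Sox17-RACVECs, 241 for Akt-MACs and 0 for Akt-LECs against Akt-liver ECs. A pseudocount of 10 gave 92 for Akt-RACVECs, a pseudocount of 0.1 gave 2 for Sox17-RACVECs, and no filter gave 5 for Akt-LECs against Akt-liver ECs. Leaving out 1 library gave 181 (without RACVEC 2) to 740 (without MAC 2) for RACVECs against MACs, 5 (without Akt-RACVEC 2 or RACVEC 1) to 95 (without RACVEC 2) for Akt-RACVECs, 1 to 53 (without RACVEC 2) for Sox17-RACVECs, 61 (without Akt-MAC 2) to 770 (without Akt-MAC 1) for Akt-MACs, 0 to 16 (without Akt-liver EC 1) for Akt-LECs against Akt-liver ECs, and 4 (without RACVEC 3) to 80 (without Akt-LEC 3) for RACVECs against Akt-LECs. Without both Akt-LEC 1 and Akt-liver EC 1, a setting chosen after seeing the data, 26 genes were called in Akt-LECs against Akt-liver ECs and 136 in RACVECs against Akt-LECs (39). The cause of these moves was not tested.

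Of the pan-leukocyte markers, 0 instead of 9 were called in Akt-MACs against MACs when only these groups were fitted, and 2 to 10 when 1 library was left out. Over the limma results of single list genes, counted once for each alternative, 237 calls were lost, 14 were gained, 2646 results kept their side of the threshold and 0 changed direction. Of the neighbours, 3 instead of 5 were called in Akt-liver ECs against LSECs with a pseudocount of 10, and leaving out 1 library gave 3 to 5 there and 0 to 1 in Sox17-RACVECs against RACVECs.

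No comparison had a correlation of deviations over 0.1 in all 3 pairs of libraries with the same replicate number. In Akt-LECs against Akt-liver ECs the correlations were 0.571, 0.366 and -0.050. With 3 libraries per group, this does not exclude that the replicate numbers pair samples. With the replicate block, 5 genes were called in RACVECs against MACs and 4282 in Akt-liver ECs against LSECs, and 0 in the other 5 comparisons. The block called 0 pan-leukocyte markers in RACVECs and in Akt-MACs, each against MACs, and 10 in Akt-liver ECs against LSECs.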
